A study of Mus musculus with 9 samples.

Results

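The genes described here are 6 members of interferon signalling: Stat2, Irf1, Irf7, Irf8, Irf9 and Socs1, taken by gene name from the deposited tables, which hold 42188 genes. All 6 were measured in every one of the 9 mouse liver libraries, and all 6 were among the 14603 genes with enough counts to be tested. The libraries form 3 groups of 3. Control mice received phosphate-buffered saline intravenously. ConA mice received concanavalin A, 20 mg/kg intravenously, a lectin from jack bean that drives T cells into activation and so injures the liver. MSA_ConA mice received MSA, 250 mg/kg intraperitoneally, 6 h ahead of concanavalin A at that dose. MSA was taken to stand for mesaconate, the itaconate-related metabolite of the series title. Livers were taken 12 h after concanavalin A. Per the labels all mice were C57BL/6J males, 8 weeks old and 20 to 25 g, with no transgene or deletion named. By these labels the groups share strain, sex and age and differ by injection only. Transcripts given below go against the labelled sex and strain in the libraries numbered 2 and 3.

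Interferons are cytokines that act through receptors on the cell surface and the Janus kinases bound to them. Type I interferons lead to a complex called ISGF3, which holds STAT2 and IRF9, and IRF9 helps it to recognise a DNA element, the ISRE (interferon-stimulated response element). Interferon gamma, a product of activated T and NK cells, acts through another element, the GAS (gamma-activated site), and Irf1 is among the first genes it turns on. IRF8 is a factor of macrophages and dendritic cells, and also responds to interferon gamma elsewhere. IRF7 amplifies the production of type I interferon and is itself a target of ISGF3. SOCS1 is a target that closes the loop, since it binds Janus kinases and blocks them. In concanavalin A hepatitis, interferon gamma is known to contribute to liver injury.

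Before any result, the libraries need a remark, because those numbered 1 stand apart from those numbered 2 and 3 in every group. It is numbers 2 and 3 whose Xist levels go against the labelled sex and whose Nnt levels go against the labelled strain. Xist, transcribed from the inactive X chromosome of females, measured at most 0.484 CPM (counts per 1000000 counts of a library, scaled by TMM, the trimmed mean of M values) in number 1 of each group, but between 667 and 1131 CPM in the other 6 libraries, which the labels call male. Nnt, in which the C57BL/6J strain carries a deletion, measured 29.8 to 34.5 CPM against 168 to 266 CPM. Mup21 measured 251 to 668 CPM against at most 1.44 CPM, and H2-K1, a class I histocompatibility gene, 2021 to 8625 CPM against 100.2 to 165 CPM. The deposited totals were alike, 13294600 to 17276391 counts per library. Each result is therefore given with the libraries numbered 1 and without them, and a library is called by its label only ("the library labelled ConA 1", or ConA 1 for short).

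The starts of 4 of the genes hold short matches to interferon-related elements, and their sequences are shown. Of these, Irf1, Irf8 and Socs1 have the highest ratios of ConA 1 over Control 1 below, and Stat2 has a ratio of 1.16. Irf7, without a match, has a ratio of 5.29. Whether the matches bear on the ratios was not tested. The 250 bases before the first start site of each gene are printed 5′ to 3′ on the gene's strand, from RefSeq on GRCm38.p6, a different build from that of the deposited coordinates, with matches in capitals. Irf1 lies at chr11:53769764-53770013, plus strand, and its capitals mark a GAS match (TTCCCCGAA) 90 to 82 bases before the start and an NF-kappa-B match 13 to 4 bases before it. Irf8 lies at chr8:120736108-120736357, plus strand, with GAS matches 171 to 163 and 153 to 145 bases before the start. Socs1 lies at chr16:10785537-10785786, minus strand, with a pair of overlapping ISRE core matches that together run from 83 to 69 bases before the start. Stat2 lies at chr10:128270248-128270497, plus strand, with an ISRE core match on the opposite strand 221 to 213 bases before the start.
Irf1: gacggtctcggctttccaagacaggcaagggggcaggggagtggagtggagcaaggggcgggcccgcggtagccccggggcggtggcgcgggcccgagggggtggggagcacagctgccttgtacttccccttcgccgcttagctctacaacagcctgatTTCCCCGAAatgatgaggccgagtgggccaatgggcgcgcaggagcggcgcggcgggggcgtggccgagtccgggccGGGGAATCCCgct
Irf8: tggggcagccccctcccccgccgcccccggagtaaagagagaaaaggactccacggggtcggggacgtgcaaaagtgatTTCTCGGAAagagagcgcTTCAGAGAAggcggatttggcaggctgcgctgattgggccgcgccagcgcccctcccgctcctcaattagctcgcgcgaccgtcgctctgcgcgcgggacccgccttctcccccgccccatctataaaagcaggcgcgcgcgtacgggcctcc
Socs1: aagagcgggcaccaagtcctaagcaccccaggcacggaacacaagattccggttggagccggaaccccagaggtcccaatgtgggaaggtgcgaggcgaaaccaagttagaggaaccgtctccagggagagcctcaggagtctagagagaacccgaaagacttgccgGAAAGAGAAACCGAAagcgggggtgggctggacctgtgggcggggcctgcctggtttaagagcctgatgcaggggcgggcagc
Stat2: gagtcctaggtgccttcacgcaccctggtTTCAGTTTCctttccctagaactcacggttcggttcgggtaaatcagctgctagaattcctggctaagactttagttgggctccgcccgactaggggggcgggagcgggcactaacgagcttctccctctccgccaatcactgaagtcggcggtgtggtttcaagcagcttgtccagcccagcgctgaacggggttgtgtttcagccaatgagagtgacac
The motifs searched on both strands, over windows from 250 bases before to 50 after each start, were TTCNNNGAA for the GAS, GAAANNGAA for the ISRE core and the NF-kappa-B consensus. Of 32851 RefSeq mouse promoter windows of that length, 8.3% held the GAS letters, 8.56% the ISRE core letters and 4.51% the NF-kappa-B letters, so each is common. No match was found for Irf7, for either start of Irf9 or for the second starts of Irf1 and Irf8, which says only that these letters are not in those windows. The matches are a description of the sequence and no measure of binding.

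Stat2 and Irf9 encode parts of ISGF3, and neither was past 4-fold from the same-numbered Control in any library. Irf9 in MSA_ConA 1 stood furthest, 2.03-fold below Control 1. Stat2 (deposited as MGP_C57BL6NJ_G0018250, chromosome 10, 136461565 to 136490450 of the C57BL/6NJ strain assembly, plus strand) measured 198, 128 and 111 CPM in Control 1, 2 and 3. It measured 229, 104 and 98.2 CPM in ConA 1, 2 and 3, and 173, 105 and 94.8 CPM in MSA_ConA 1, 2 and 3. The library numbered 1 was the highest of each group, and the 3 groups overlapped. ConA 1 stood 1.16-fold above Control 1 (95% interval 1.09 to 1.22; intervals on such single-library ratios are exact binomial and cover counting error only). That direction depends on the scaling: by plain library totals the ratio was 0.821. Scaling by totals moves every ConA 1 over Control 1 ratio by -0.49 on the log2 scale, every MSA_ConA 1 over ConA 1 ratio by -0.24 and every MSA_ConA 1 over Control 1 ratio by -0.73, so ratios between these libraries near 1 have no firm direction.

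Irf9 (MGP_C57BL6NJ_G0021756, chromosome 14, 52134307 to 52140772, plus strand) measured 56.3, 47.6 and 44.1 CPM in Control, 45.8, 44.3 and 34.7 CPM in ConA, and 27.8, 45.3 and 43.8 CPM in MSA_ConA. The lowest of the 9 was the library labelled MSA_ConA 1, and the groups overlapped. MSA_ConA 1 was 2.03-fold below Control 1 (1.74 to 2.37) and 1.65-fold below ConA 1 (1.40 to 1.95). ConA 1 was 1.23-fold below Control 1 (1.10 to 1.38), close to the 1.27-fold of number 3. Irf9 overlaps Rnf31 on the same strand, and whether counting used strand or split shared reads is not given in the sources used here, so reads of the overlap cannot be told apart.

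Irf1, the early interferon gamma target, reached the highest level of any member, in 1 library. Irf1 (MGP_C57BL6NJ_G0018696, chromosome 11, 54790564 to 54798923, plus strand) measured 44.1, 47.6 and 46.9 CPM in Control and 1743, 37.4 and 37.9 CPM in ConA. In MSA_ConA it measured 14.2, 37.4 and 25.9 CPM. ConA 1 was 39.5-fold above Control 1 (36.4 to 43.0), from 18018 counts against 592, while ConA 2 and ConA 3 lay below all 3 Control libraries, at 0.786 and 0.807 of their same-numbered Controls. MSA_ConA 1 was 123-fold below ConA 1 (101.5 to 149.5) and 3.10-fold below Control 1 (2.52 to 3.84), the lowest of the 9 libraries. All 3 MSA_ConA libraries lay below all 3 Control libraries, without overlap. The test below did not call that difference, and how many of all genes separate this way was not counted. The gene model overlaps Gm17334 on the other strand, which had 126 counts over all libraries together, too few to carry the values of ConA 1.

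Irf8 (MGP_C57BL6NJ_G0034700, chromosome 8, 128318723 to 128340680, plus strand), the macrophage and dendritic cell factor, was, like Irf1, highest in ConA 1, at a lower level. It measured 12.9, 8.51 and 7.07 CPM in Control, 301.2, 7.77 and 5.85 CPM in ConA, and 11.3, 6.92 and 7.41 CPM in MSA_ConA. ConA 1 was 23.4-fold above Control 1 (20.1 to 27.4) and 26.6-fold above MSA_ConA 1 (21.5 to 33.4). The other 8 libraries lay between 5.85 and 12.9 CPM. MSA_ConA 1 stood at 0.879 of Control 1, with an interval of 0.671 to 1.15 that spans 1.

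Irf7 (MGP_C57BL6NJ_G0033713, chromosome 7, 151794393 to 151798168, minus strand), the amplifier of type I interferon, differed between numbers already in the Control mice, given saline. It measured 78.1, 37.9 and 20.3 CPM in Control, 413, 19.1 and 13.6 CPM in ConA, and 71.6, 19.9 and 13.9 CPM in MSA_ConA. ConA 1 was 5.29-fold above Control 1 (4.94 to 5.66) and 5.76-fold above MSA_ConA 1 (5.27 to 6.31). In the other numbers the direction was the opposite one: ConA 2 stood at 0.503 of Control 2 (0.442 to 0.571) and ConA 3 at 0.672 of Control 3 (0.570 to 0.791). MSA_ConA 2 and MSA_ConA 3 likewise stood at 0.526 and 0.683 of their Controls. Irf7 overlaps Phrf1 on the other strand, which had 5626 counts over all libraries, so reads of the overlap cannot be told apart there either.

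Socs1 (MGP_C57BL6NJ_G0022926, chromosome 16, 7758614 to 7760342, minus strand), the inhibitor of Janus kinases, was almost without counts outside 2 libraries. Its deposited counts were 7, 11 and 7 in Control, 1809, 4 and 6 in ConA, and 119, 8 and 12 in MSA_ConA. As CPM the same libraries read 0.521, 0.574 and 0.364, then 175.0, 0.206 and 0.341, then 15.7, 0.443 and 0.618. ConA 1 was 336-fold above Control 1, with a wide interval of 163 to 836 because Control 1 had 7 counts. MSA_ConA 1 was 11.2-fold below ConA 1 (9.27 to 13.6) and still 30.1-fold above Control 1 (14.1 to 76.4). Of the 6 members, Socs1 was the one whose MSA_ConA 1 level stayed more than 4-fold above Control 1. With 4 to 12 counts each, the Socs1 levels of numbers 2 and 3 could not be told apart at this depth.

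**Figure D1:**
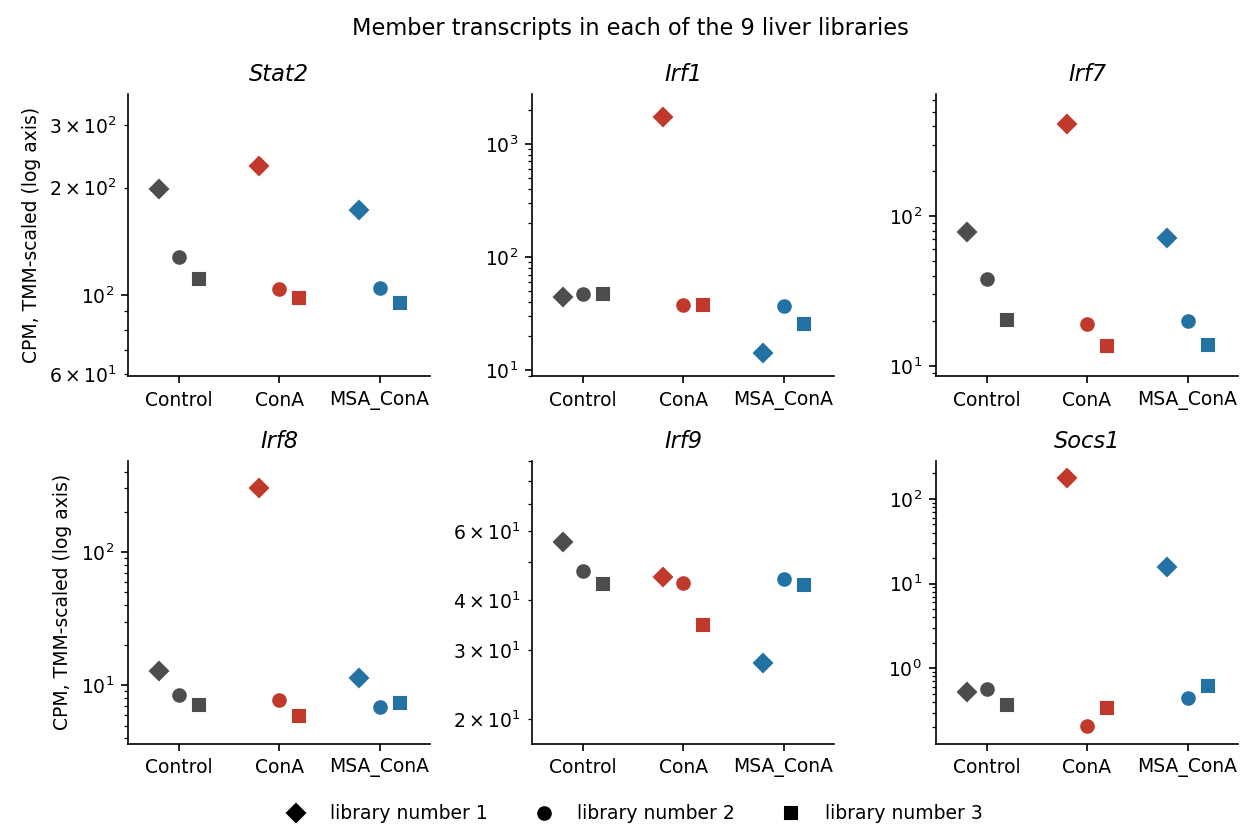
Level of each member in each of the 9 libraries, as TMM-scaled CPM on log axes that differ between panels and do not start at 0; each point is 1 library, with its number given by its shape. ConA 1 stands far above the other libraries for Irf1 (1743 CPM), Irf7 (413 CPM), Irf8 (301.2 CPM) and Socs1 (175.0 CPM), and is near Control 1 for Stat2 and Irf9.

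Counted over the members, 4 of 6 were past 4-fold higher in ConA 1 than in Control 1 (Irf1, Irf7, Irf8 and Socs1), where 6.46% of all tested genes were, on ratios of CPM + 1. These 4 of 6 were also past 4-fold lower in MSA_ConA 1 than in ConA 1, where 4.47% of tested genes were. Against Control 1, 1 of 6 was past 4-fold higher in MSA_ConA 1 (Socs1), where 4.92% of tested genes were, and 0 were past 4-fold lower, where 4.46% were. No member was past 4-fold higher in ConA 2 than in Control 2 or in ConA 3 than in Control 3, where 0.616% and 0.103% of tested genes were. The median log2 ratio of the 6 members in ConA 1 over Control 1 was 3.48, beside -0.05 for all tested genes, and in numbers 2 and 3 it was -0.32 and -0.29, beside 0.02 and 0.00225. These ratios share libraries: ConA 1 is the upper library of the first comparison and the lower one of the second, so a high value there moves both, and the groups' own levels above are the measurement.

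**Figure D2:**
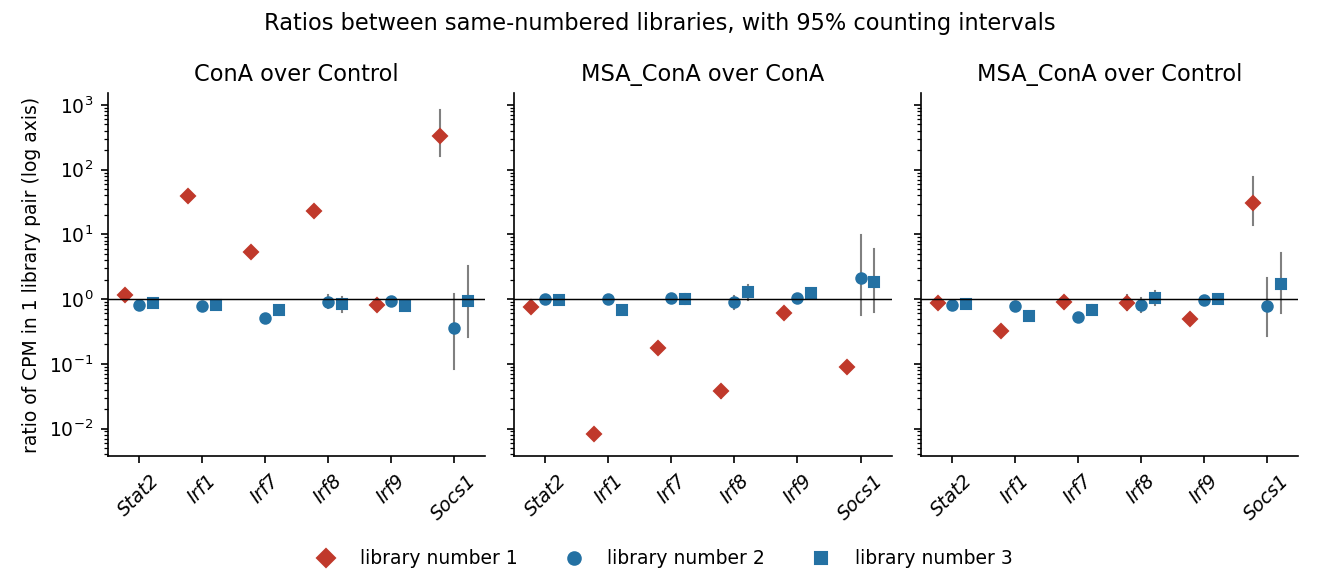
Ratio of TMM-scaled CPM between same-numbered libraries for each member, on a log axis, 1 point per library pair with its 95% counting interval as a line. The ratios of number 1 reach 336 for Socs1 in ConA over Control and 0.00816 for Irf1 in MSA_ConA over ConA. Those of numbers 2 and 3 lie between 0.359 and 2.15, both of Socs1 at few counts. Some of their intervals exclude 1, as for Irf7 in ConA 2 over Control 2 (0.503, 0.442 to 0.571).

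Compared per transcript length, the members stood in another order in ConA 1 than in Control. The scale here is the deposited FPKM, in which the count is scaled by gene length and by a total per library. In Control the mean levels were 32.4 ± 10.6 FPKM for Stat2, 14.9 ± 9.81 for Irf7, 11.5 ± 0.393 for Irf1, 9.04 ± 1.22 for Irf9, 1.32 ± 0.432 for Irf8 and 0.394 ± 0.0890 for Socs1 (SD, n = 3 each). Stat2 and Irf7 overlapped in range, as did Irf7 and Irf1; the neighbours from Irf1 down to Socs1 were separate. In ConA 1 the order was Irf1 at 441 FPKM, Socs1 at 144, Irf7 at 138, Stat2 at 51.9, Irf8 at 42.8 and Irf9 at 8.55. Socs1, the lowest member in Control, came next after Irf1 in that library. In MSA_ConA 1 the order was Stat2 at 39.8, Irf7 at 24.2, Socs1 at 13.1, Irf9 at 5.27, Irf1 at 3.66 and Irf8 at 1.63 FPKM.

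As group means, ConA gave 153 ± 249 FPKM for Irf1, 49.4 ± 76.4 for Irf7, 48.3 ± 83.2 for Socs1, 32.2 ± 17.1 for Stat2, 14.9 ± 24.2 for Irf8 and 7.64 ± 1.08 for Irf9 (SD, n = 3 each). The SD exceeded the mean for Irf1, Irf7, Irf8 and Socs1, and all neighbours in the order overlapped. MSA_ConA gave 28.0 ± 10.3 for Stat2, 11.8 ± 10.9 for Irf7, 7.20 ± 1.69 for Irf9, 6.46 ± 2.88 for Irf1, 4.66 ± 7.33 for Socs1 and 1.21 ± 0.368 for Irf8 (SD, n = 3 each), again with every neighbour overlapping. In the libraries numbered 2 and 3 of all groups, Stat2 ran from 20.7 to 28.3 FPKM and Irf1 from 6.32 to 11.8. Irf9 ran from 6.44 to 8.69, Irf7 from 4.45 to 12.3, Irf8 from 0.825 to 1.18 and Socs1 from 0.163 to 0.491. As CPM, the highest over the lowest of these libraries was 1.35 for Stat2, 1.37 for Irf9 and 1.45 for Irf8. It was 1.84 for Irf1, 2.78 for Irf7 and 3.0 for Socs1.

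**Figure D3:**
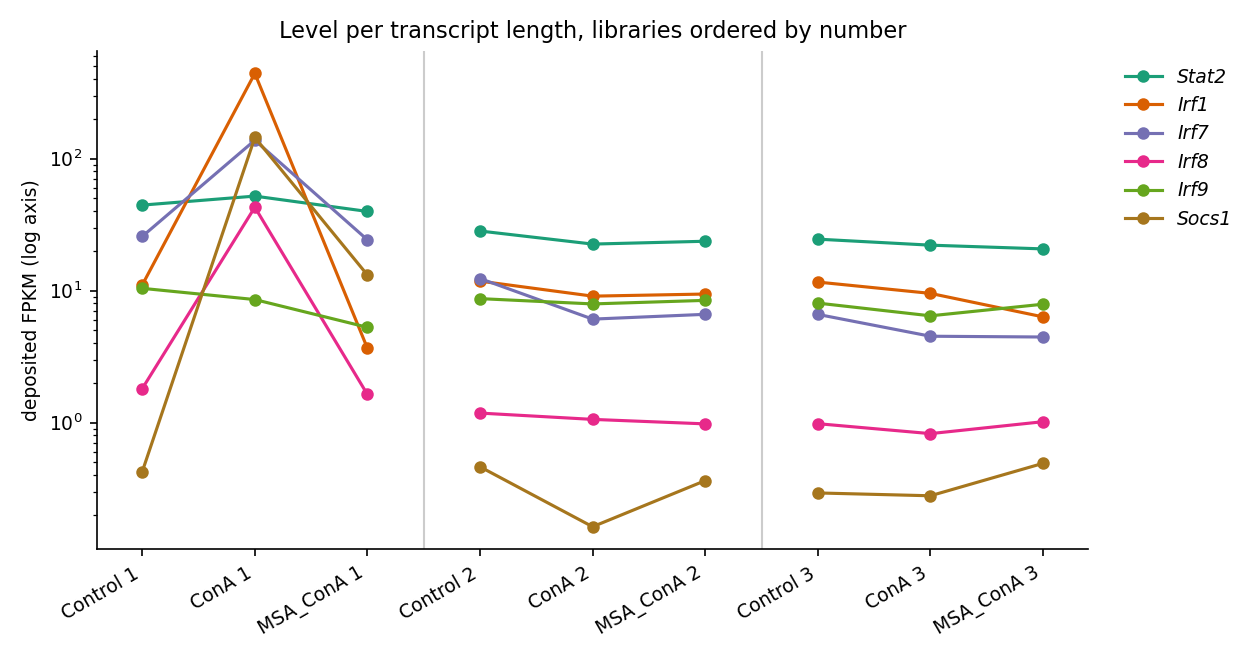
Level of each member per transcript length, in deposited FPKM on a log axis, with libraries set out by number and group; lines join points of 1 gene within a number for the eye and mark no time course. In numbers 2 and 3 Stat2 comes first and Socs1 last, and Irf7 runs from 4.45 to 12.3 FPKM. In ConA 1 Irf1 (441 FPKM) and Socs1 (144 FPKM) come first.

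The design asks which genes concanavalin A altered, and whether MSA given beforehand altered that response. On all 9 libraries, edgeR's quasi-likelihood test called 0 of the 6 members in ConA against Control, MSA_ConA against ConA and MSA_ConA against Control, and 0% of the 14603 tested genes in each (Benjamini-Hochberg adjusted p under 0.05). At an unadjusted p under 0.05, 563, 248 and 730 genes passed; DESeq2 called 2, 0 and 55 genes. The estimates for ConA minus Control were log2 3.72 (SE 1.38) for Irf1, 6.89 (SE 2.64) for Socs1, 3.47 (SE 1.34) for Irf8, 1.71 (SE 1.26) for Irf7, -0.02 (SE 0.45) for Stat2 and -0.24 (SE 0.29) for Irf9, each with an adjusted p of 0.9997 in edgeR. Only 1 of 3 ConA libraries was above all Controls for Irf1, Irf7, Irf8 and Socs1. For MSA_ConA minus ConA the estimates were -4.55 (SE 1.44) for Irf1, -3.62 (SE 1.36) for Irf8, -3.43 (SE 2.22) for Socs1 and -2.08 (SE 1.28) for Irf7, each with an adjusted p of 0.9999 in edgeR. DESeq2 gave no p for Irf1, Irf8 and Socs1 in these comparisons, since it treats a count far from the others of its group as an outlier.

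Without the libraries numbered 1 the ConA minus Control estimates of Irf1, Irf7, Irf8 and Socs1 turned. On the 6 libraries numbered 2 and 3, edgeR called 0% of 14851 genes in each comparison, and ConA minus Control was log2 -0.34 for Irf1, -0.21 for Irf8, -0.79 for Socs1 and -0.85 (SE 0.32) for Irf7, the last with an unadjusted p of 0.032 and an adjusted p of 0.414 in edgeR. At an unadjusted p under 0.05, 1725 genes passed there for ConA against Control, 767 for MSA_ConA against ConA and 3578 for MSA_ConA against Control, and DESeq2 called 94, 14 and 1311. MSA_ConA minus ConA was -0.24 for Irf1, 0.091 for Irf8, 0.064 for Irf7 and 0.97 for Socs1. MSA_ConA minus Control was -0.58 (SE 0.18) for Irf1, with an adjusted p of 0.125 in edgeR. For Irf7 it was -0.78, with an adjusted p of 0.194 in edgeR, against -0.37 on all 9 libraries. Both genes were lower in 2 of 2 MSA_ConA libraries than in either Control. For Irf7 the margin was narrow, 19.9 CPM in MSA_ConA 2 against 20.3 CPM in Control 3. How many of all genes separate this way was not counted.

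The division by number was tested in its own right. With the group means kept, number 1 stood above numbers 2 and 3 for Stat2 by log2 0.91 (SE 0.17, adjusted p 0.00518, edgeR), for Irf7 by 2.91 (SE 0.57, adjusted p 0.00627) and for Socs1 by 5.82 (SE 1.38, adjusted p 0.0127). That is 3 of 6 members called higher, where 19.1% of tested genes were. For Stat2 the number 1 library was the highest of its group in 3 of 3 groups, Control included. The Socs1 call rests on the library labelled ConA 1: without it the estimate was 3.19 and the adjusted p 0.0592. Irf1, Irf8 and Irf9 were not called (2.07, 2.70 and -0.03, with adjusted p of 0.279, 0.0544 and 0.925 in edgeR).

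Whether the response differed between number 1 and numbers 2 and 3 was tested by an interaction term, which leaves 3 residual degrees of freedom and takes the lone library numbered 1 of each group to vary as the other 2 do. For ConA minus Control the difference was log2 9.15 (SE 0.59, adjusted p 0.000242, edgeR) for Socs1, 5.64 (SE 0.36, adjusted p 0.000231) for Irf1, 4.74 (SE 0.32, adjusted p 0.000272) for Irf8 and 3.24 (SE 0.57, adjusted p 0.00653) for Irf7. These 4 of 6 members were called higher, where 15.7% of tested genes were. Stat2 at 0.45 (adjusted p 0.212) and Irf9 at -0.08 (adjusted p 0.844) were not called by edgeR. For MSA_ConA minus ConA the same 4 of 6 were called lower, where 10.1% of tested genes were: Irf1 by -6.69 (adjusted p 0.000262), Irf8 by -4.81 (adjusted p 0.000413), Socs1 by -4.44 (adjusted p 0.0022) and Irf7 by -2.57 (adjusted p 0.0226, edgeR). The Irf7 call was lost without ConA 3 (-2.36, adjusted p 0.0646).

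For MSA_ConA minus Control the interaction called Socs1 higher by 4.71 (SE 0.57, adjusted p 0.00167, edgeR), where 16% of tested genes were called higher, and Irf9 lower by -0.98 (SE 0.28, adjusted p 0.0329), where 16.6% were called lower. The Irf9 call was lost without Control 2, Control 3 or MSA_ConA 2, with adjusted p of 0.0554, 0.0677 and 0.0649. Irf1 missed the threshold at -1.05 (adjusted p 0.0544) and passed it without MSA_ConA 3 (-1.33, adjusted p 0.0164). Since number 1 is 1 library per group, the treatment and the single mouse cannot be told apart in these differences.

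**Figure D4:**
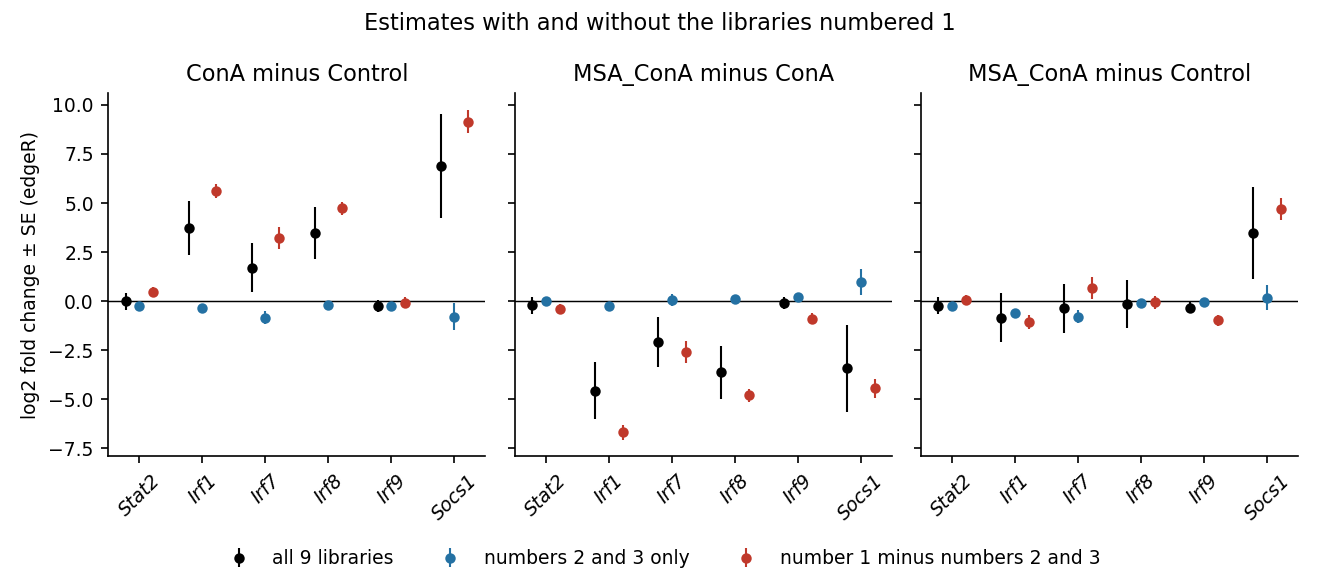
Estimates of log2 fold change from edgeR with their standard errors, for 3 comparisons, from all 9 libraries (black), from the 6 libraries numbered 2 and 3 (blue) and for the difference between number 1 and numbers 2 and 3 (red). For ConA minus Control, Socs1 reads 6.89 on all 9 libraries, -0.79 on numbers 2 and 3 and 9.15 as the difference.

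The rest of the pathway was read from 9 gene lists, of which 111 of 122 entries matched a gene in the table. No list gene was called in the 9-library comparisons or in the 6 libraries numbered 2 and 3, so the counts below are of the interaction term (edgeR, adjusted over all tested genes; called lower for ConA minus Control were 15.4% of tested genes, and called higher for MSA_ConA minus ConA 8.59%) and of single-library ratios in number 1, whose median over all tested genes was -0.05 for ConA 1 over Control 1 and 0.0 for MSA_ConA 1 over ConA 1 as log2 of CPM + 1.

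The ligands were near the limit of detection. Of 12 matched genes only Ebi3, a subunit of interleukin 27, had enough counts to test, and it was not called. Named after their values were seen, Ifng, the gene of interferon gamma, had 28 counts in ConA 1, 7 in Control 1 and 0 to 6 in the other 7 libraries, and Il27 had 34 counts in ConA 1 and 0 to 10 in the others. Ifnb1, the gene of interferon beta, had 4 counts in ConA 1 and 0 in the other 8. Ifna4, Ifna5, Ifna11, Ifna12, Ifna13, Ifne and Ifnl2 had 0 counts in all 9 libraries; 3 counts, the limit that a count of 0 allows, equal 0.154 to 0.395 CPM.

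Receptors and Janus kinases carry the signal to the STATs. In the interaction for ConA minus Control 5 of 8 tested were called higher (Ifnar2, Ifngr1, Ifngr2, Jak1 and Jak2) and 0 lower, a count of the response and not of the level in number 1. Jak1, shared by all interferon receptors, measured 76.6, 204 and 136 CPM in Control 1, ConA 1 and MSA_ConA 1, and 91.3 to 129 CPM in numbers 2 and 3. Ifngr1, a chain of the interferon gamma receptor, measured 16.8, 49.4 and 29.9 CPM. Ifnar2, a chain of the type I receptor, measured 40.4, 62.4 and 46.7 CPM. For MSA_ConA minus ConA, 2 of 8 were called lower (Ifngr2 and Jak2), and the median log2 ratio of number 1 was -0.64 against 1.01 for ConA over Control.

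Among the other STAT genes, Stat3, which acts downstream of interleukin 6, was the 1 of 4 called higher for ConA minus Control. It measured 75.0 CPM in Control 1, 886 in ConA 1 and 703 in MSA_ConA 1, and 82.7 to 99.4 CPM in the 6 others, so the high level held in MSA_ConA 1. The difference for MSA_ConA minus ConA was -0.23 and not called (adjusted p 0.568, edgeR).

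Of the other IRF genes 0 of 5 were called higher for ConA minus Control. Irf2, which competes with IRF1 for its sites, measured 13.3, 23.7 and 14.2 CPM in Control 1, ConA 1 and MSA_ConA 1, below the 27.8 to 39.5 CPM of numbers 2 and 3. Irf3, the constant partner of IRF7 in interferon induction, measured 121, 70.1 and 17.1 CPM and was among 3 of 5 called lower for MSA_ConA minus ConA (-1.94, adjusted p 0.00799, edgeR), with Irf4 and Irf5. Per length, Irf1 over Irf2 read 2.12 in Control 1, 46.8 in ConA 1 and 0.637 in MSA_ConA 1, and 0.517 to 1.09 in numbers 2 and 3. Irf7 over Irf3 read 0.460 in Control 1, 4.19 in ConA 1 and 2.98 in MSA_ConA 1, and 0.253 to 0.435 in the others.

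The feedback genes, which act on Janus kinases and STATs as SOCS1 does, differed from each other in MSA_ConA 1. Socs3, the inhibitor tied to STAT3, measured 18.0, 1324 and 891 CPM in the libraries numbered 1 and at most 7.54 CPM in the others. Ptpn2, a phosphatase of Janus kinases and STATs, measured 11.5, 139.6 and 111 CPM. Usp18, which shuts the type I receptor and is an ISGF3 target, measured 21.4, 170.2 and 7.37 CPM. In the interaction 8 of 15 were called higher and 3 lower for ConA minus Control; for MSA_ConA minus ConA 4 of 15 were called lower, Usp18 among them (-5.06, adjusted p 0.000274, edgeR), and Socs3 was not (-0.13, adjusted p 0.877). Socs1 lay between these: MSA_ConA 1 over ConA 1 was 0.0895 for Socs1, 0.673 for Socs3, 0.792 for Ptpn2 and 0.0433 for Usp18. Per length, Socs1 over Socs3 read 0.0688 in Control 1, 0.313 in ConA 1 and 0.0417 in MSA_ConA 1.

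Nucleic acid sensors and their kinases, which lead to IRF3 and IRF7, showed 6 of 14 called higher and 1 lower for ConA minus Control, and 2 higher and 5 lower for MSA_ConA minus ConA. Ikbke and Tbk1 encode the kinases that phosphorylate IRF3 and IRF7, and they differed in MSA_ConA 1. Ikbke measured 59.9 CPM in Control 1, 869 in ConA 1 and 7.64 in MSA_ConA 1, and Tbk1 17.9, 100.1 and 128.0 CPM. Mavs, the adaptor of RNA sensors, measured 60.8, 26.3 and 59.3 CPM, against 105.0 to 142 CPM in numbers 2 and 3. Among the partner factors of IRFs 3 of 8 were called higher for ConA minus Control (Batf2, Nlrc5 and Irf2bp2), and 5 of 8 lower for MSA_ConA minus ConA. Nlrc5, the activator of class I histocompatibility genes, measured 46.8, 118 and 62.8 CPM, and Irf2bp2, a corepressor of IRF2, 34.0, 423 and 196 CPM.

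Most of the tested targets of ISGF3 were higher in ConA 1 than in Control 1 and lower in MSA_ConA 1 than in Control 1. Of 20 tested ISGF3 targets 15 were called higher in the interaction for ConA minus Control and 0 lower, and 18 lower for MSA_ConA minus ConA. In ConA 1 over Control 1 their median log2 ratio was 2.49 and 13 of 20 were past 4-fold higher; in MSA_ConA 1 over Control 1 it was -1.36, with 17 of 20 below Control 1. Isg15, a ubiquitin-like modifier, measured 38.9, 476 and 8.16 CPM in Control 1, ConA 1 and MSA_ConA 1, with the others between 3.07 and 7.10 CPM. Oasl1, a repressor of Irf7 translation, measured 29.1, 509 and 14.8 CPM, and Bst2, a membrane tether of viruses, 379, 568 and 421 CPM.

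Of 19 tested targets of interferon gamma 16 were called higher and 0 lower for ConA minus Control, and 16 lower for MSA_ConA minus ConA. Their median log2 ratio was 3.41 in ConA 1 over Control 1, -3.88 in MSA_ConA 1 over ConA 1 and -0.27 in MSA_ConA 1 over Control 1. Cxcl9 and Cxcl10 encode chemokines that attract T cells. Cxcl9 measured 19.7, 4374 and 22.8 CPM in Control 1, ConA 1 and MSA_ConA 1, with the others between 10.4 and 14.6 CPM. Cxcl10 measured 13.9, 3505 and 2.63 CPM, and Psmb10, a subunit of the immunoproteasome, 69.6, 289 and 58.6 CPM. On the 6 libraries numbered 2 and 3 the median log2 fold change for ConA minus Control was -0.14 for the ISGF3 targets and 0.03 for the interferon gamma targets, beside 0.01 for all genes, and 0 were called.

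**Figure D5:**
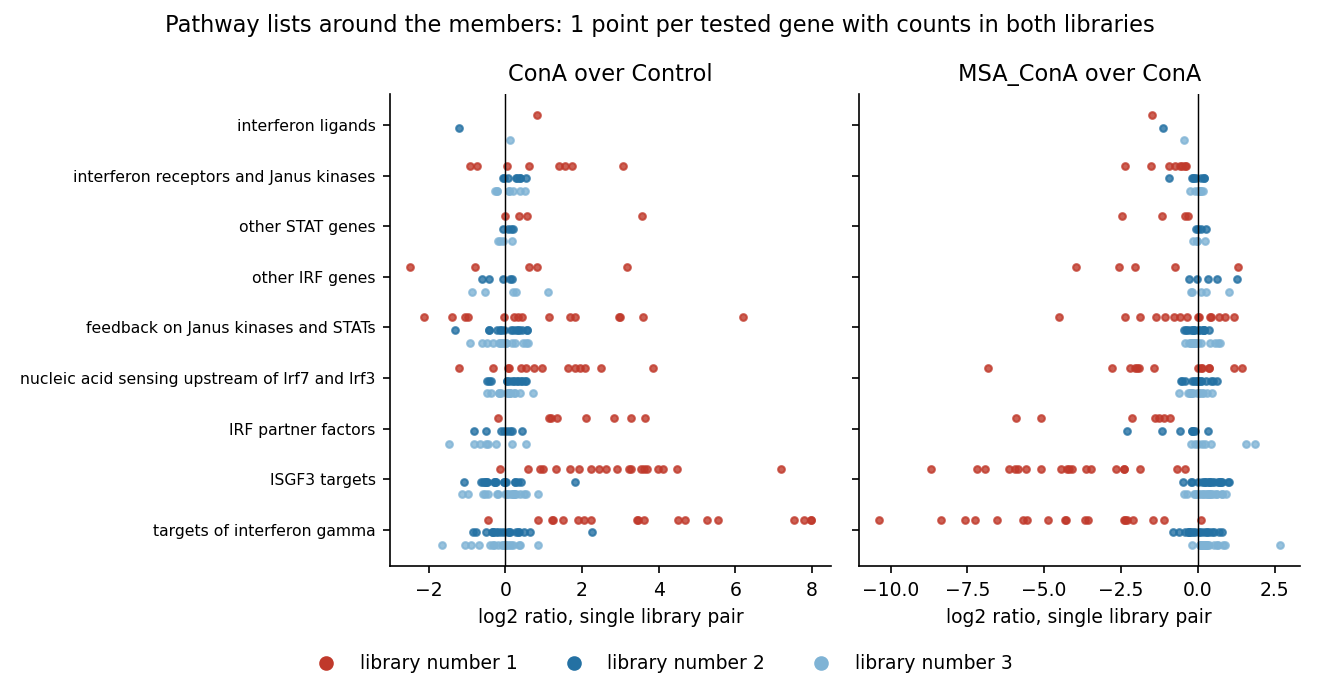
Log2 ratios between single libraries for the tested genes of 9 pathway lists, 1 point per gene with counts in both libraries, for number 1 (red), number 2 (dark blue) and number 3 (light blue). In number 1 most ISGF3 and interferon gamma targets lie right of 0 for ConA over Control and left of 0 for MSA_ConA over ConA, and points of numbers 2 and 3 gather near 0.

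Markers of some other cell types differed between the same libraries, and their part in the results was not tested. Summed over 10 of 10 neutrophil markers the level was 428 CPM in ConA 1, 63.2 in MSA_ConA 1 and 3.29 to 10.4 in the other 7 libraries; in ConA 1 none of the 10 was at 0, and S100a9 (261 CPM) and S100a8 (111 CPM) made up most of the sum. The 13 T and NK cell markers summed to 44.9 CPM in ConA 1 and 4.35 to 9.71 in the other 8, and in MSA_ConA 1 6 of the 13 were at 0, Cd3d, Cd8a, Gzmb and Prf1 among them. The granzyme genes Gzmb (24.8 CPM) and Gzma (8.90 CPM) made up most of the sum in ConA 1, while the T cell genes Cd3e, Cd3g, Cd4, Cd8a and Cd8b1 read 0.484, 0.290, 2.32, 0.387 and 0 CPM there, each below Control 1 at 0.745, 0.819, 2.53, 0.596 and 0.298 CPM, and Cd3d read 0.967 against 0.223 CPM. The 9 dendritic cell markers, cells in which Irf8 is high, summed to 16.9 CPM in ConA 1, within the 5.93 to 20.9 of the others. Zbtb46 (8.71 CPM) and Ccr7 (6.58 CPM) made up most of that sum, against 7.0 and 1.34 CPM in Control 1. Clec9a read 0.774 CPM in ConA 1 and 6.03 in Control 1, and Itgae, Flt3 and Cd209a were at 0 in ConA 1. Of the 5 tested dendritic markers 3 were higher and 2 lower in ConA 1 than in Control 1. The 10 Kupffer cell markers, of the liver's resident macrophages, summed to 347 CPM within 236 to 553. Of these, 8 were lower and 2 higher in ConA 1 than in Control 1, with Clec4f at 51.4 against 185 CPM. The 8 B cell markers summed to 4.55 CPM in ConA 1, against 4.87 to 13.2 in the others. Of 8 monocyte markers 7 are in the table, and they summed to 3268 CPM in ConA 1 against 999 to 2337. Of that sum Fn1, which hepatocytes also express, was 3214 CPM. Plac8, Chil3, Vcan and F13a1 read 34.9, 11.8, 4.64 and 1.26 CPM in ConA 1. In Control 1 they read 8.64, 0.298, 0.298 and 0.149 CPM. Ccr2 read 0.871 CPM in ConA 1 and 1.42 in Control 1, and Itgam was at 0 in both. Of the 5 tested monocyte markers 4 were higher and 1 lower in ConA 1 than in Control 1. The 9 hepatocyte markers summed to 200100 CPM in MSA_ConA 1 and to 100300 to 124300 CPM in the other 8. Such high sums are what the label of liver calls for. Adipocyte markers summed to 493 CPM in MSA_ConA 1, of which Cidec was 441.5, 144 in ConA 1, 131 in MSA_ConA 3 and 108 in ConA 2, against 7.96 to 15.9 in the other 5. Adipoq and Plin1 were at 0 in MSA_ConA 1 and ConA 1, and read 7.93 and 9.78 CPM in ConA 2 and 7.98 and 14.9 CPM in MSA_ConA 3. Skeletal muscle markers summed to 1.09 to 2.82 CPM in Control, 3.87, 420.5 and 76.2 CPM in ConA 1, 2 and 3, and 121, 413 and 5454 CPM in MSA_ConA 1, 2 and 3. In bulk tissue, more cells of a type and more RNA per cell cannot be told apart.

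Genes most like each member were sought by the root mean square difference of log2(CPM + 1), centred per gene, over the 9 libraries and 12041 genes, as a description. Nearest to Irf1, whose own SD over libraries was 1.84, were Cited2 (0.384), Phlda1 (0.421) and Ikbke (0.482). Nearest to Irf8 (SD 1.61) were Aldh1a3 (0.191), Irak3 (0.228) and Relb (0.262), and to Socs1 (SD 2.33) Plaur (0.260), S100a9 (0.274) and Hmox1 (0.289). S100a9, a neutrophil marker, measured 261 CPM in ConA 1, 28.4 in MSA_ConA 1 and at most 1.64 in the others. Nearest to Irf7 (SD 1.49) were Ccdc88b (0.260) and Lgals3 (0.270). Nearest to Stat2 (SD 0.449) were Psma7 (0.0716), Sdf2 (0.0815) and Cyp2d40 (0.0896), and to Irf9 (SD 0.268) Rfc3 (0.0953), Prpf38b (0.102) and Ppp1r13b (0.104). Each of these genes was compared over the same 9 libraries, in which ConA 1 stands apart for Irf1, Irf7, Irf8 and Socs1.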

How the data were processed

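The authors deposited raw read counts per gene and FPKM values for 9 libraries. Per the labels' protocols, RNA came from liver tissue by Trizol and libraries were built with an Illumina kit. Bowtie 0.12.2 is named in the submitters' processing notes beside mm8 and mm10, with no roles. The sources used here name no counting tool and no use of strand. Each deposited FPKM value equalled count over gene length over 1 effective total per library.

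Libraries were grouped by title, and each group holds 3 mice per the labels. Counts were tested with edgeR 4.0.16 (R 4.3.3), quasi-likelihood, TMM factors, default filter by group (14603 of 42188 genes), 1 mean per group, 6 residual degrees of freedom, and Benjamini-Hochberg adjustment over all tested genes. Scripts were tested on simulated data. Single-library ratios carry exact 95% intervals. A count was worth 0.0515 to 0.132 TMM-scaled CPM. Alternatives used DESeq2 1.42.0, limma 3.58.1, other scalings and filters, the library number as a block, the libraries numbered 2 and 3, and leaving out each library.

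Same-numbered libraries deviated together from their group means, with correlations all over 0.1. These were 0.489 to 0.72, 0.364 to 0.575 and 0.337 to 0.493 for numbers 1, 2 and 3. Libraries numbered 2 also deviated together with those numbered 3 of other groups, at 0.332 to 0.706. The correlations thus set number 1 apart but cannot pair 2 with 2 or 3 with 3. The numbers were still used to match libraries for the single-library ratios, though the labels name no shared origin. The members, lists and tests were chosen with earlier results of these data known. All 6 members, the 3 tested genes of each list with the highest mean FPKM, and the 3 genes most like each member were named by rule; some genes are not reported here.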

Additional observations from a re-analysis of the deposited data

Results flagged for a closer look

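Each of these values is a difference between the libraries numbered 1 and those numbered 2 and 3 in a contrast, tested by an interaction term in edgeR. For ConA minus Control, the log2 difference was 5.64 for Irf1, 3.24 for Irf7, 4.74 for Irf8 and 9.15 for Socs1. For MSA_ConA minus ConA it was -6.69 for Irf1, -2.57 for Irf7, -4.81 for Irf8 and -4.44 for Socs1. For MSA_ConA minus Control it was -0.98 for Irf9 and 4.71 for Socs1. Number 1 is 1 library per group, and it also differs from the others in sex and strain transcripts; the part of these in the differences was not tested.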

How the results depend on the processing

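On all 9 libraries no member was called in the 3 group comparisons under any alternative run, DESeq2 and limma included where they gave a p. DESeq2 called 2 genes for ConA minus Control and 55 for MSA_ConA minus Control. For number 1 against the others DESeq2 called 5 of 6 members and 6937 of 14603 genes, where edgeR called 3 and 5592. When the library number entered the fit as a replicate block, 0 genes were called in each comparison, and ConA minus Control was 2.23 for Irf1 and 2.70 for Socs1; the block changed no call.

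With the libraries numbered 2 and 3 only, directions turned for ConA minus Control in Irf1 (-0.34), Irf7 (-0.85), Irf8 (-0.21) and Socs1 (-0.79), and for MSA_ConA minus ConA in Stat2 (0.00121), Irf7 (0.064), Irf8 (0.091), Irf9 (0.19) and Socs1 (0.97). Number 1 against the others turned for Irf9 with DESeq2 (0.027) and with relative log expression factors (0.025). The interaction for MSA_ConA minus Control turned for Stat2 without the count filter (-0.00013). Irf1 passed in that interaction with DESeq2 (-1.01) and without the filter (-1.11), and Irf8 passed in number 1 against the others with DESeq2 (2.74), relative log expression (2.76) and no filter (2.60).

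Leaving out each library in turn, ConA minus Control ran from -0.53 to 0.26 for Stat2, -0.30 to 4.25 for Irf1, -1.47 to 2.34 for Irf7, -0.48 to 4.00 for Irf8 and -0.82 to 7.46 for Socs1; the lowest value of Irf1, Irf7, Irf8 and Socs1 came without ConA 1. MSA_ConA minus ConA ran from -0.53 to 0.29 for Stat2, -3.13 to 1.09 for Irf7, -4.17 to 0.32 for Irf8, -0.22 to 0.10 for Irf9 and -6.76 to 4.28 for Socs1. MSA_ConA minus Control ran from -0.55 to 0.045 for Stat2, -1.43 to 0.25 for Irf7 and -0.41 to 0.12 for Irf8. Number 1 against the others ran from -0.59 to 3.74 for Irf1 and -0.22 to 0.25 for Irf9, and called 2 to 4 members. The interactions ran from -0.27 to 0.087 for Irf9 (ConA minus Control), -0.069 to 0.12 for Stat2 and -0.23 to 0.026 for Irf8 (MSA_ConA minus Control). That for MSA_ConA minus ConA called 1368 to 2403 genes against 2724, lowest without ConA 3 and 1631 without ConA 2, and that for MSA_ConA minus Control 1 to 3 members. The cause of these shifts was not tested. An interaction without a library numbered 1 could not be fitted, as that class then has no library in the group. Depth limits Socs1, at 4 to 12 counts in 7 libraries.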

Other observations

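Per transcript length, Stat2 stood above Irf9 in every library. Stat2 over Irf9 in FPKM read 4.27, 6.07 and 7.55 in Control 1, ConA 1 and MSA_ConA 1 and 2.62 to 3.43 in numbers 2 and 3. The highest ratio was in MSA_ConA 1, the library with the lowest Irf9 level.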
